A study of Mus musculus with 12 samples.

Results

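The untreated states of 2 mouse cell lines, AML12 and iWAT, were compared at the level of the transcriptome. The comparison used the 3 AML12 and the 3 iWAT libraries titled DMSO, 6 of the 12 libraries of a series on diethyl phthalate (DEP), a phthalate ester. The labels call AML12 mouse hepatocytes and iWAT mouse adipocytes. The treatment label names DMEM/F12 medium for the AML12 controls and DMEM for the iWAT controls, and no label records a step of adipocyte differentiation. The other 6 libraries, from cells of both lines given 50 µM DEP for 48 h after confluence, served only as a second set in which to look at the same difference.

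Each line is a single culture type and stands for no tissue. AML12 is an established line from the liver of a mouse that carries a human transforming growth factor alpha transgene, as general knowledge and not from the labels. Medium, table and line form 1 contrast here, so that a difference between the lines cannot be told apart from a difference between their media or tables. Nothing in the labels says that the 3 libraries of a line came from separate cultures, and the p-values then measure only the spread between libraries, which may be technical.

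Hepatocytes are epithelial cells that carry keratins 8 and 18, are held together by cadherin and claudin junctions, and make most plasma proteins under liver transcription factors such as HNF4A. Adipocytes arise from mesenchymal progenitors that carry PDGF receptors and collagens, and maturation switches on PPARG, C/EBPA and the lipid-droplet and adipokine genes. Position along the body axis is kept by mesenchymal cells in culture as a pattern of HOX genes.

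Values are FPKM (fragments per kilobase of exon, scaled to the library's total), so that levels of different genes can be set beside each other. The 2 lines sit in separate tables. That of AML12 lists 27742 genes and that of iWAT lists 29092, with 24255 genes in both. Of these, 12477 had at least 1 FPKM in 3 of the 6 control libraries and were tested. Library totals ran from 42845105 to 46232482 reads in AML12 and from 50035049 to 54585090 in iWAT, where 1 read in a 1-kb gene is worth 0.0183 to 0.0233 FPKM. Differences are AML12 minus iWAT on the log2(FPKM + 1) scale, which understates the ratio of a gene that is low in either line.

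The lines differed in most genes. At a Benjamini-Hochberg adjusted p below 0.05 in limma, 11134 of 12477 genes (89.2%) differed, and in 11203 genes (89.8%) the 3 libraries of one line all lay above the 3 of the other. A gene was therefore called only if it also differed at least 2-fold, a log2 difference of 1. That left 4246 called genes (34.0%), of which 1770 (14.2% of those tested) were higher in AML12 and 2476 (19.8%) higher in iWAT. These percentages are the background against which counts within gene groups are read below. A gene below 1 FPKM throughout in one line passed the filter through the other alone, and could be called only for that other line. This bears on counts and medians of lists that are low in one line, such as the epithelial, hepatocyte, mesenchymal, Hox and interferon lists. Over all tested genes the median difference was -0.22 and the median size of a difference 0.68, beside a median standard error of 0.042. AML12 held 41.7% of the higher calls on the deposited scale, but 51.9% after median-of-ratios scaling and 53.9% after centring each library on its median, which moved the median difference to -0.02 and -0.0057. Which line had more genes on its side thus depended on the scaling.

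Large differences ran both ways. A 4-fold difference was met by 1444 genes and a 16-fold one by 324, and 32-fold differences by 99 genes higher in AML12 and 50 higher in iWAT. Libraries of a line correlated with each other at 0.996 across tested genes, and libraries of different lines at 0.673 to 0.675. The same contrast in the DEP libraries had the same sign in 4240 of the 4246 called genes (99.9%), and 3648 of them were called there in the same direction. Within a line, DEP and DMSO libraries differed by a median of 0.11 in AML12 and 0.058 in iWAT. With shifts this small beside a 2-fold threshold, the shared sign could hardly fail. The DEP libraries also share line and table with the controls, so that they are no separate support.

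**Figure D1:**
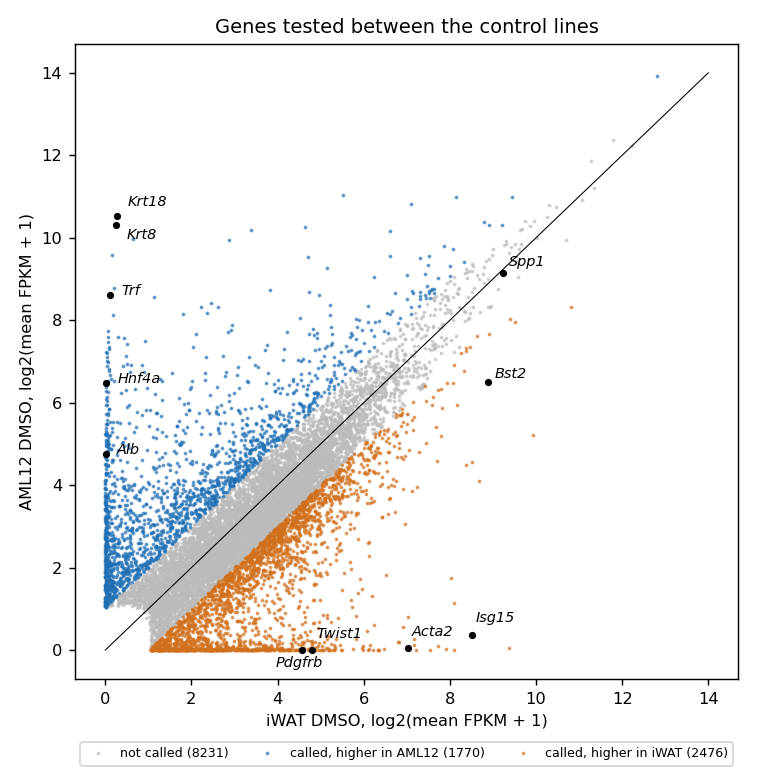
Mean level of each of the 12477 tested genes in the iWAT (x axis) and AML12 (y axis) control libraries, as log2(mean FPKM + 1), 3 libraries a line. Blue and orange points are the 1770 and 2476 genes called higher in AML12 and in iWAT, grey points were not called, and the line marks equal levels. Krt8, Krt18, Trf, Hnf4a and Alb lie along the left edge and Acta2, Twist1, Pdgfrb and Isg15 along the bottom, while Spp1 lies on the line.

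The largest differences in favour of AML12 were of simple-epithelial keratins. Krt18 (ENSMUSG00000023043) stood at 1482, 1468 and 1455 FPKM in the 3 AML12 libraries and at 0.229, 0.152 and 0.236 FPKM in the 3 iWAT libraries. In bulk RNA, fewer cells of a type and less RNA per cell cannot be told apart, here and below. Its partner Krt8 (ENSMUSG00000049382) stood at 1259, 1282 and 1269.6 FPKM in AML12 and at 0.140, 0.304 and 0.133 FPKM in iWAT. The lines were far apart in both genes, with log2 differences of 10.25 (SE 0.03, adjusted p = 1.05e-11, limma) and 10.06 (SE 0.05, adjusted p = 2.6e-11, limma). The next largest were Wfdc2, a secreted protease-inhibitor-like protein of epithelia (9.44), Krt19, a keratin of bile duct and other simple epithelia (9.33), and Efemp1, an extracellular matrix glycoprotein (8.57). Trf (transferrin, the plasma iron carrier), Aldh3a1 (an aldehyde dehydrogenase), Abcc3 (an export pump of the basolateral membrane), Perp (a desmosome protein) and mesothelin (Msln) complete the first 10, with differences of 8.50, 7.96, 7.67, 7.52 and 7.42.

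On the iWAT side the largest difference was that of Ifitm3, an interferon-induced membrane protein that restricts virus entry, at 667 ± 3.17 FPKM in iWAT (SD, n = 3) and 0.0445 ± 0.0386 FPKM in AML12 (log2 difference -9.32). Isg15, a ubiquitin-like interferon product, followed at -8.14. Matrix and matrix-bound proteins filled several of the next places, namely Aebp1 (-7.87), the proteoglycan Bgn (-7.63) and the BMP antagonist Grem1 (-7.52). The others of the first 10 were Gpnmb (-8.11), a transmembrane glycoprotein, the pentraxin Ptx3 (-7.22), the chemokine Cxcl10 (-7.06), smooth muscle actin Acta2 (-6.98) and Serpinf1 (-6.95), which encodes pigment epithelium-derived factor. Gpnmb and Ptx3 had no read in any AML12 control library. For Ptx3, 3 reads over the AML12 group would make it at least 17884-fold higher in iWAT. Mitochondrial transcripts were among the highest in both lines, with mt-Co1 at 15441 ± 354 FPKM in AML12 and 7140.4 ± 33.2 FPKM in iWAT (1.11), mt-Cytb at 4814 ± 139 and 4817 ± 55.4 FPKM, and mt-Nd1 at 3740 and 2490 FPKM (0.59), the last 2 not called.

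Epithelial genes were higher in AML12. Of 44 listed keratin, junction and epithelial splicing or transcription factor genes, 23 were tested, 20 were called higher in AML12 and 0 higher in iWAT. Of all 44, 24 were at 1 FPKM or more in every AML12 control library and 6 in every iWAT one, 16 were in both tables below the filter, and 5 were missing from 1 or both tables. Members below 1 FPKM in iWAT passed the filter through AML12 alone, so that the count of calls is bound to the filter. Cdh1, the adherens-junction cadherin of epithelia, read 53.0, 51.1 and 50.9 FPKM in AML12 and 0, 0.0174 and 0.00874 FPKM in iWAT, with 6 reads in the 3 iWAT libraries together (log2 difference 5.71, adjusted p = 2.6e-11, limma). The tight-junction claudins Cldn6 and Cldn2 stood at 176 ± 0.947 and 127 ± 2.84 FPKM in AML12, and below 0.1 FPKM in each iWAT library. Krt20 and Krt7 stood at 192 ± 4.45 and 108 ± 1.57 FPKM in AML12. The median difference of the 23 tested genes was 4.54, and 9.15 as a plain log2 ratio of mean FPKM with the 1 gene at 0 reads in iWAT set at 3 reads.

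Part of the epithelial list was low in AML12 as well. The splicing factor Esrp1 and the transcription factor Grhl2 stood at 0.00958 and 0.0521 FPKM in AML12, and the claudins Cldn3 and Cldn7 at 0.0232 and 0 FPKM. These 4 genes were picked after their values were seen, and all lay below the filter. Vim, an intermediate filament protein of mesenchymal cells that many cultured lines carry, was high in both lines, at 527 ± 5.12 FPKM in AML12 and 274 ± 0.839 FPKM in iWAT (0.94, under the 2-fold threshold).

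**Figure D2:**
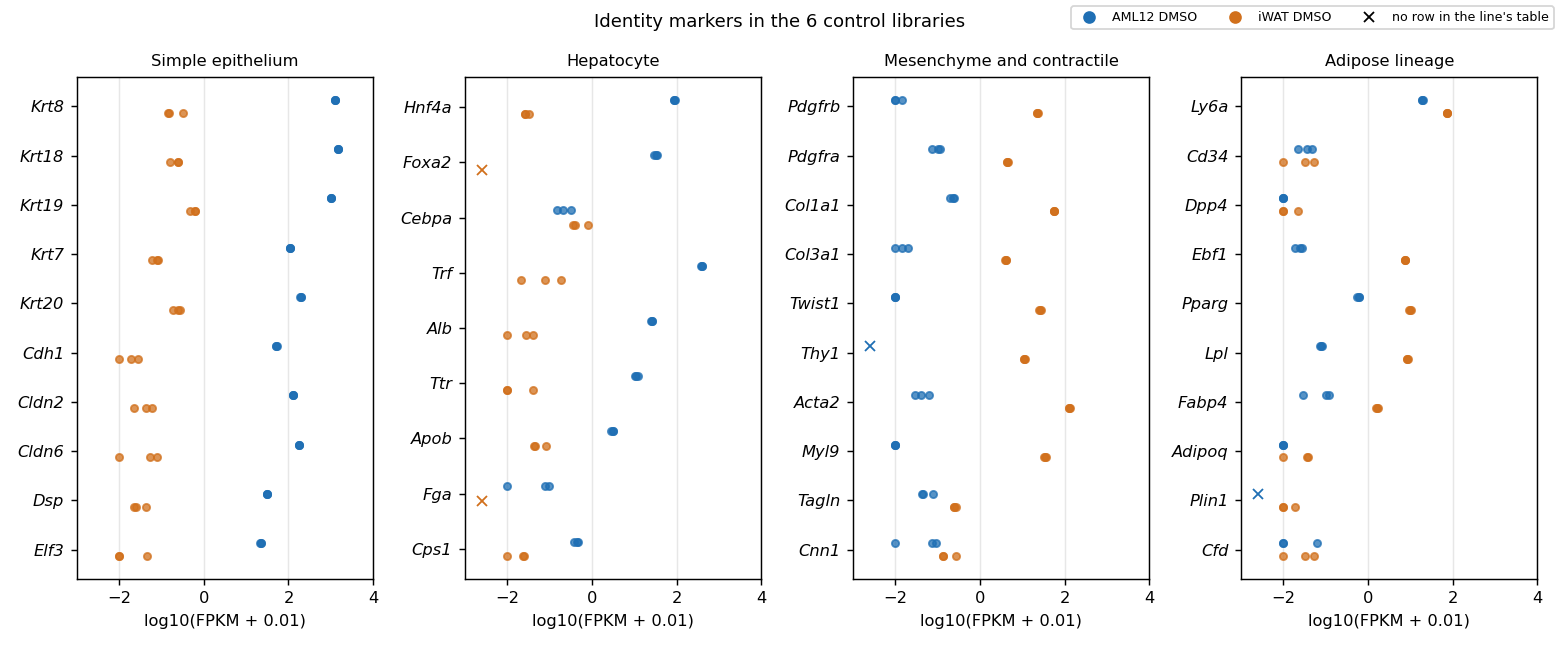
Level of identity markers in each control library, as log10(FPKM + 0.01) on the x axis, with AML12 DMSO in blue, iWAT DMSO in orange and a cross where a line's table has no row for the gene. Each point is 1 of 3 libraries a line. The lines separate in every epithelial marker shown, while Cebpa, Cps1, Tagln, Cnn1, Cd34, Dpp4 and Adipoq lie below 1 FPKM in both. Over all tested genes, 89.8% did not overlap between the lines.

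Liver transcription factors were present in AML12 as a partial set. Hnf4a (ENSMUSG00000017950), a nuclear receptor central to hepatocyte identity, stood at 87.5, 88.2 and 89.9 FPKM in AML12 and 0.0228, 0.0164 and 0.0166 FPKM in iWAT (log2 difference 6.46, SE 0.03, adjusted p = 1.41e-11, limma). Foxa2, a pioneer factor of endoderm, is listed in the AML12 table alone, at 33.7, 33.1 and 30.0 FPKM, and Foxa3 read 2.64 ± 0.285 FPKM. Nr1h4, the bile acid receptor, stood at 10.4 ± 0.592 FPKM, and Nr1i2, the pregnane X receptor, at 3.33 ± 0.231 FPKM. Cebpa, which supports both hepatocyte and adipocyte maturation, was low in both lines, at 0.214 ± 0.0873 FPKM in AML12 and 0.502 ± 0.237 FPKM in iWAT, and Foxa1 stood at 0.0134 and 0.0531 FPKM. Over the 22 listed factors, 7 of 10 tested were higher in AML12 and 1, the T-box repressor Tbx3, was higher in iWAT, and 9 more were in both tables below the filter.

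Secreted liver proteins were likewise present only in part. Trf stood at 388, 390.2 and 396 FPKM in AML12 and at 0.0110, 0.173 and 0.0662 FPKM in iWAT. Rbp4, the retinol carrier, stood at 112 ± 3.65 FPKM in AML12, and the heme carrier Hpx at 30.4 ± 1.18 FPKM. Alb, which encodes albumin, read 26.1, 26.2 and 25.4 FPKM in AML12 and 0.0313, 0.0169 and 0 FPKM in iWAT (log2 difference 4.73, adjusted p = 6.93e-11, limma). Ttr, Apoa1 and Apob, a thyroid hormone carrier and 2 apolipoproteins, lay lower still, at 11.1 ± 0.785, 3.26 and 3.03 ± 0.158 FPKM. The tested members called higher in AML12 are 8 of 34 listed proteins, and those below 1 FPKM in iWAT passed the filter through AML12 alone. Of the 34, 10 were at 1 FPKM or more in every AML12 control library and 24 were at that level in neither line throughout. Apoe, an apolipoprotein that macrophages and other cells also make, was the 1 call for iWAT. This call was lost under median-of-ratios scaling, under centring and without 1 AML12 library.

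Metabolic enzymes of the mature hepatocyte were mostly near 0. Cps1, the entry enzyme of the urea cycle, stood at 0.428, 0.466 and 0.357 FPKM in AML12, under the filter. Ass1, a later urea-cycle enzyme, had 0 reads in the 3 AML12 control libraries and 8.99, 11.4 and 8.53 FPKM in iWAT, at least 1043-fold higher there when 3 reads over the AML12 group are taken as the floor. Of 34 listed enzymes and transporters, 6 were at 1 FPKM or more in every AML12 control library and 27 in neither line. Among the 6 called higher in AML12 were Aldh3a1 (279 ± 5.07 FPKM), the glutamine synthetase Glul (216 ± 1.76 FPKM), the glucuronosyltransferase Ugt2b34 (148 ± 2.55 FPKM), the glutathione transferase Gsta2 (60.5 ± 3.38 FPKM) and the canalicular export pump Abcc2 (43.6 ± 0.733 FPKM). Being listed does not make a gene, such as Aldh3a1, particular to the mature hepatocyte. Ugt2b34 and Gsta2 belong to families of similar genes whose reads may be split by the counting.

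Some genes shared with bile ducts and liver progenitors stood high in AML12. Krt19 read 999, 1015 and 1010.5 FPKM in AML12 and 0.622, 0.620 and 0.463 FPKM in iWAT. The surface protein Cd24a stood at 211 ± 2.49 FPKM against 17.6 ± 0.761, the transcription factor Sox9 at 12.5 ± 0.124 against 4.95 ± 0.194, and the cilium protein Pkhd1 at 5.59 ± 0.0808 against 0.00279 ± 0.00279. Of 19 listed genes, 12 were tested, 7 were called for AML12 and 1, the anion exchanger Slc4a2, for iWAT. Spp1 (osteopontin), picked after its values were seen, was high in both, at 568 ± 10.4 and 599 ± 4.10 FPKM.

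Mesenchymal genes gave the opposite picture. Of 43 listed, 36 were tested, 27 were called higher in iWAT and 2 higher in AML12, and 37 were at 1 FPKM or more in every iWAT control library, beside 13 in AML12. Pdgfrb (ENSMUSG00000024620), the PDGF receptor of fibroblasts and mural cells, stood at 0, 0 and 0.00426 FPKM in AML12 and 23.4, 22.7 and 22.0 FPKM in iWAT (log2 difference -4.56, SE 0.04, adjusted p = 1.09e-10, limma). The AML12 value is 1 read in 3 libraries. The fibrillar collagen Col1a2 had no AML12 read and 31.8, 31.8 and 31.0 FPKM in iWAT, at least 17571-fold higher by the 3-read floor. Its partner Col1a1 stood at 55.4 ± 0.567 FPKM in iWAT and 0.213 ± 0.0265 FPKM in AML12, and Col5a2 and the cross-linking enzyme Loxl1 at 43.6 ± 0.871 and 44.3 ± 0.717 FPKM in iWAT.

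Twist1, a bHLH factor of mesenchyme, read 26.7 ± 1.66 FPKM in iWAT and had 0 reads in AML12, at least 1950-fold higher in iWAT. Thy1, a surface protein of fibroblasts, and the collagen cross-linker Lox are listed in the iWAT table alone, at 11.1 ± 0.373 and 23.2 ± 0.293 FPKM. The 2 members higher in AML12 were Loxl2 and Nt5e, a matrix cross-linking enzyme and the ecto-enzyme CD73, at 13.7 and 3.97 FPKM against 2.94 and 0.199 FPKM. The median difference of the 36 tested genes was -2.63, and -6.61 as a plain log2 ratio of mean FPKM with the 4 genes at 0 reads in AML12 set at 3 reads.

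Contractile genes were split in iWAT. Acta2 (ENSMUSG00000035783), the smooth muscle actin of myofibroblasts and mural cells, stood at 132, 128 and 127 FPKM in iWAT and 0.0197, 0.0300 and 0.0531 FPKM in AML12 (log2 difference -6.98, SE 0.03, adjusted p = 1.41e-11, limma). The myosin light chain Myl9 read 36.2, 35.1 and 33.4 FPKM in iWAT with 0 AML12 reads. Yet Tagln and Cnn1, 2 further actin-binding proteins that usually accompany them in smooth muscle, stood at 0.258, 0.240 and 0.231 and at 0.121, 0.123 and 0.263 FPKM in iWAT, below the filter, and smooth muscle myosin Myh11 at 0.0372 ± 0.0218 FPKM. Of 27 listed genes, 13 were tested, 9 were called for iWAT and 2 for AML12. The 2 were Ccn2, a matricellular protein (200 against 27.6 FPKM), and the smoothelin gene Smtn (28.6 against 9.65 FPKM).

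Adipocyte genes differed by member. Pparg, the master regulator of adipocyte formation, stood at 9.89, 10.3 and 9.32 FPKM in iWAT and 0.608, 0.587 and 0.537 FPKM in AML12 (log2 difference -2.78, adjusted p = 2.95e-09, limma). The progenitor factor Ebf1 read 7.48 ± 0.136 against 0.0137 ± 0.00460 FPKM, the lipase Lpl 8.46 against 0.0672 FPKM and the lipid-droplet protein Plin4 9.24 ± 0.340 against 0.189 ± 0.00912 FPKM. The fatty acid carrier Fabp4 stood at 1.67, 1.64 and 1.57 FPKM in iWAT, above AML12 but low. Adiponectin (Adipoq) read 0.0265, 0.0287 and 0 FPKM in iWAT, 4 reads in all, the droplet coat protein Plin1 had 2 reads, and leptin (Lep) had no row in either table. Of 25 listed genes of mature adipocytes, 9 were at 1 FPKM or more throughout in each line. Of the 12 tested, 3 were called for iWAT and 2, the droplet protein Cidec and the glycerol-3-phosphate dehydrogenase Gpd1, for AML12. These counts are near the 19.8% and 14.2% of all tested genes. The iWAT cells are labelled adipocytes, and these defining genes of mature adipocytes were at or near 0 or had no row in their control libraries.

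Markers of adipose progenitors were uneven. Ly6a (Sca-1) stood at 75.4, 73.0 and 74.0 FPKM in iWAT and at 18.4, 18.9 and 19.8 FPKM in AML12 (log2 difference -1.91), and Pdgfra, the PDGF receptor of adipocyte progenitors, at 4.40 ± 0.0971 against 0.0869 ± 0.0213 FPKM. The surface marker Cd34 was at 0.0245 and 0.0219 FPKM in AML12 and iWAT, and Dpp4 at 0 and 0.00422 FPKM. Of 25 listed progenitor genes, 10 were tested, 4 were called for iWAT and 2 for AML12, the latter Bmp4 (31.1 ± 0.710 against 0.0143 ± 0.0134 FPKM) and Sox9. The transcription factors of adipogenesis divided evenly, 4 higher in each line among 13 tested. Over all tested genes, 19.8% were called for iWAT and 14.2% for AML12. Klf5 (21.6 ± 1.33 FPKM), Srebf1, Klf15 and Nr1h3 were higher in AML12, and Pparg, Ebf1, Cebpd and Tle3 were higher in iWAT.

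**Figure D3:**
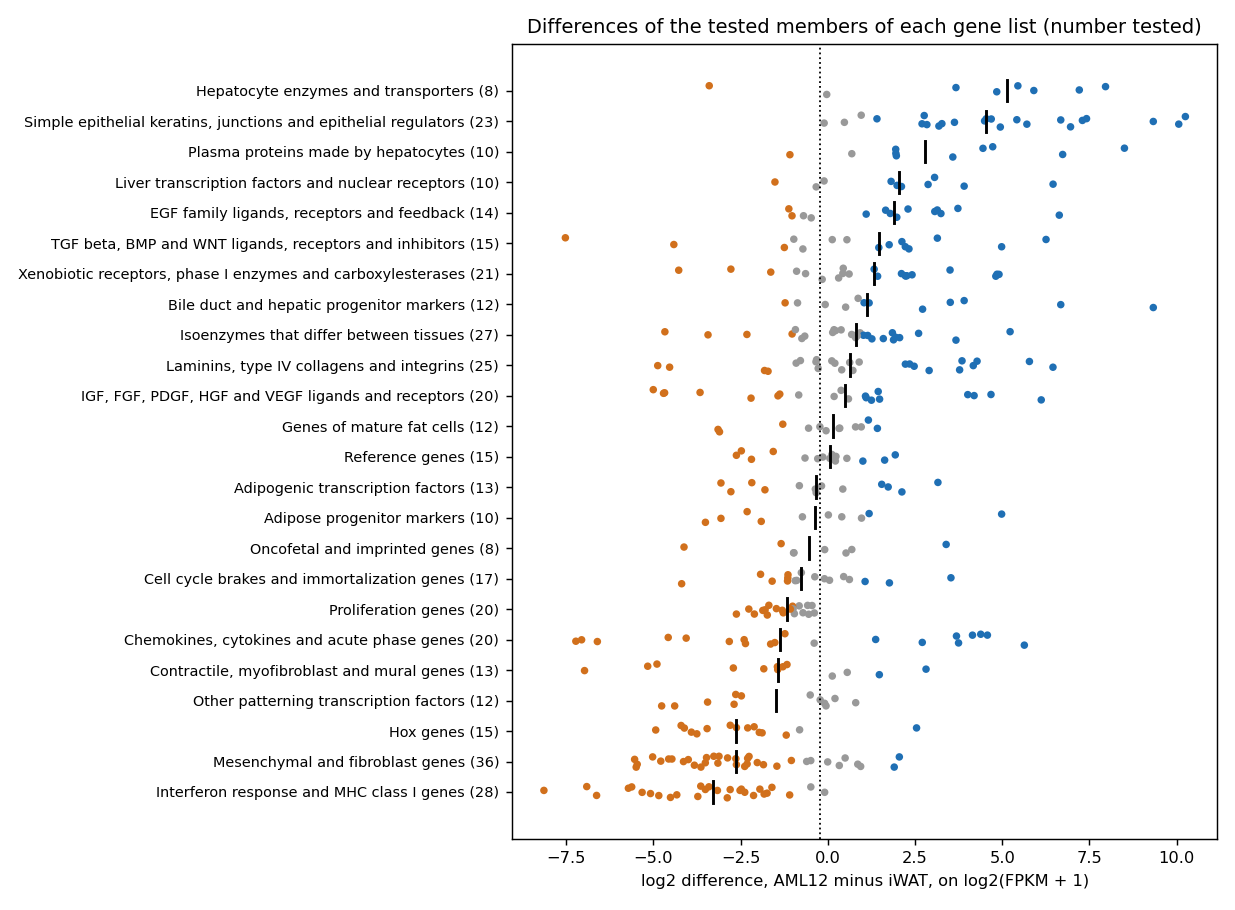
Log2(FPKM + 1) difference, AML12 minus iWAT, on the x axis for each tested member of the gene lists set out on the y axis, each with its number tested, with members called higher in AML12 in blue, members called higher in iWAT in orange, uncalled members in grey a black bar at the list's median and a dotted line at the median of all tested genes. The epithelial list has its median at 4.54 and the interferon list at -3.29.

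Body-position genes marked iWAT. Of 39 listed Hox genes, 15 were tested, 13 were called higher in iWAT and 1 in AML12, and 1, Hoxb5, was not called. A further 11 were listed in the iWAT table alone and 11 in neither, so that 21 reached 1 FPKM in every iWAT control library and 2 in AML12. Tested Hox genes below 1 FPKM in AML12 passed the filter through iWAT alone and could be called only for iWAT. Hoxb9 was the highest, at 30.9, 29.4 and 29.0 FPKM in iWAT and 0, 0 and 0.0181 FPKM in AML12 (log2 difference -4.93, adjusted p = 8.68e-11, limma). Hoxc6 stood at 23.9 ± 0.654 FPKM, and the posterior genes Hoxc10, Hoxc11 and Hoxc13 at 16.3, 12.5 and 14.1 FPKM in iWAT with 0 reads in AML12. By the 3-read floor, Hoxc10 was at least 1399-fold higher in iWAT.

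Within iWAT, the Hoxa cluster was lower than the highest Hoxb and Hoxc genes. The 9 of its listed genes with a row lay between 0.485 and 3.65 FPKM there, and none of them has a row in the AML12 table. The exception to the direction was Hoxb13, the most posterior gene of the Hoxb cluster, at 5.60, 5.35 and 5.31 FPKM in AML12 and 0.0332, 0.225 and 0.0544 FPKM in iWAT (2.54, adjusted p = 4.04e-08, limma). Of 27 other patterning factors, 6 of the 12 tested were called for iWAT and 0 for AML12. Tbx15, a T-box factor of limb and trunk mesenchyme, stood at 26.4 ± 0.244 FPKM, the homeobox factor Shox2 at 22.9 ± 0.963 FPKM, Pax3, of dermomyotome and neural crest, at 9.92 ± 0.336 FPKM, and the hindlimb factor Pitx1 at 4.58 ± 0.205 FPKM in iWAT. AML12 had 0 reads of Pax3 and Pitx1.

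**Figure D4:**
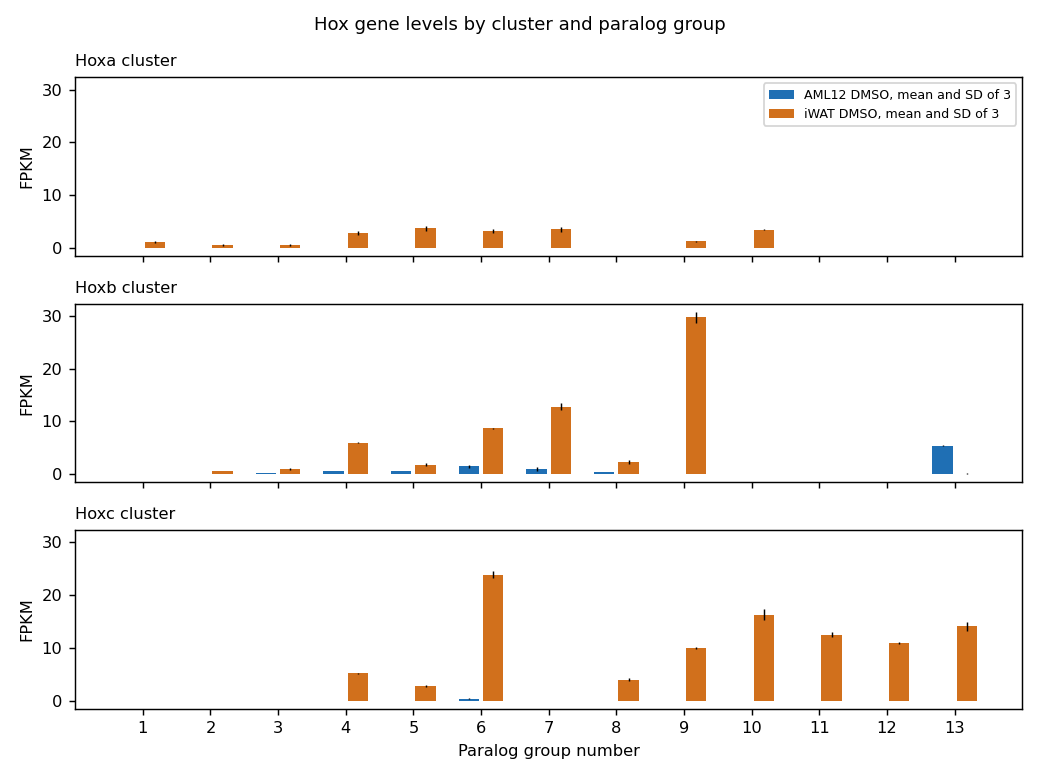
FPKM of the Hox genes of the Hoxa, Hoxb and Hoxc clusters by paralog number, with AML12 DMSO in blue and iWAT DMSO in orange, as the mean of 3 libraries with its SD. Hoxb9 (29.8 FPKM) and Hoxc6 (23.9 FPKM) are the tallest iWAT bars, and Hoxb13 (5.42 FPKM) is the tallest AML12 bar. A missing bar is a level of 0 or a gene with no row.

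The lines also differed in Y-linked transcripts. Eif2s3y, a translation factor gene of the Y chromosome, read 11.8, 12.4 and 12.4 FPKM in iWAT and had 0 reads in AML12, and the histone demethylase Kdm5d stood at 4.12 ± 0.199 FPKM against 0 reads. Xist, the RNA of the inactive X chromosome, was at 0.00923 and 0.0166 FPKM in AML12 and iWAT.

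Interferon-stimulated genes, many of whose promoters carry the interferon-stimulated response element, were high in iWAT. Of 29 listed genes of the interferon response and MHC class I presentation, 28 were tested, 26 were called higher in iWAT and 0 in AML12, beside 19.8% of all tested genes. Promoters of the RefSeq table for GRCm38.p6, taken as the 250 bases before each gene's start and matched by symbol, were searched on both strands for 7 motifs, and the promoters shown were picked after values and matches were seen. The letters of the response element, GAAA, any 2 bases and GAAA again, on either strand, were found in 10 of the 22 listed genes with a promoter (45.5%), in 3.46% of all 27025 genes and in 5.26% of the genes called for iWAT. The 250 bases before 3 of these genes are shown as examples of promoters with several matches and with 1, with matching letters in capitals. In Ifit3 and Rsad2 the match is on the opposite strand. They lie at chr4:156200819-156201068 (minus strand), chr19:34583279-34583528 (plus strand) and chr12:26456453-26456702 (minus strand) of GRCm38.p6, and hold 3 overlapping, 2 and 1 matches. A match describes the letters alone.
Isg15: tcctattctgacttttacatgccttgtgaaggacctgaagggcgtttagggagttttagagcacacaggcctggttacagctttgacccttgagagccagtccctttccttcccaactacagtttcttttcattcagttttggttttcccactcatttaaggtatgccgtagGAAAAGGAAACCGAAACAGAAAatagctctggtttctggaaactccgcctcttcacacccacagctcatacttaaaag
Ifit3: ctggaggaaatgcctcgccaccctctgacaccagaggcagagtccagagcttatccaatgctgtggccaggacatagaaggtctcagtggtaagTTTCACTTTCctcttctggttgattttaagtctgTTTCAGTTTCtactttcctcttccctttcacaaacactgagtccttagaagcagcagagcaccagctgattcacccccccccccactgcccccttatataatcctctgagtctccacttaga
Rsad2: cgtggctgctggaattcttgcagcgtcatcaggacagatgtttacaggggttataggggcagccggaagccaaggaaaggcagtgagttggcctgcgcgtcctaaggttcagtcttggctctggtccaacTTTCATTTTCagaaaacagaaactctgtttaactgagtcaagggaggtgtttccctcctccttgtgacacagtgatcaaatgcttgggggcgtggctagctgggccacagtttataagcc

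Isg15 stood at 356, 355 and 375 FPKM in iWAT and 0.492, 0.187 and 0.199 FPKM in AML12 (log2 difference -8.14, SE 0.09, adjusted p = 4.09e-10, limma). Ifit3, an interferon-induced protein of the IFIT family, read 114, 107 and 114 FPKM in iWAT against 0.0992, 0.151 and 0.161 FPKM in AML12, and Rsad2 (viperin, an antiviral enzyme) 52.3, 53.4 and 53.3 FPKM against 0.0399, 0.0101 and 0.0269 FPKM. The lines did not overlap in any of these 3 picked genes, nor in 89.8% of all tested genes. Usp18, a brake on interferon signalling, stood at 74.2 ± 1.77 FPKM in iWAT and 0.526 ± 0.0573 FPKM in AML12.

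Genes of antigen presentation differed in the same direction, with B2m abundant in both lines. B2m, the light chain of MHC class I, stood at 334, 323 and 306 FPKM in AML12 and at 1792, 1783 and 1801 FPKM in iWAT (log2 difference -2.48), and the heavy chain H2-K1 at 5.48 ± 0.0210 against 57.1 ± 0.611 FPKM. H2-K1 shares sequence with other class I genes, which may move reads between them. The 2 tested members not called were Mx1, at 1.01, 1.19 and 1.01 FPKM in AML12 and 1.49, 1.22 and 0.931 FPKM in iWAT, where the lines overlapped, and the factor Irf1. In the DEP libraries 24 of the 28 were called for iWAT.

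Of the other motifs, 3 gave these shares. The GAS element TTCNNNGAA was in 5 of the 22 interferon-list promoters (22.7%) and 8.13% of all promoters. The CArG box of serum response factor was in 3 of 19 contractile-gene promoters (15.8%) and 1.62% of all. The GC box GGGCGG, common in promoters, was in 31.8% of the interferon-list promoters, 35.4% of all promoters, 65.4% of those of tested genes and 63.7% of those of genes called for iWAT.

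**Figure D5:**
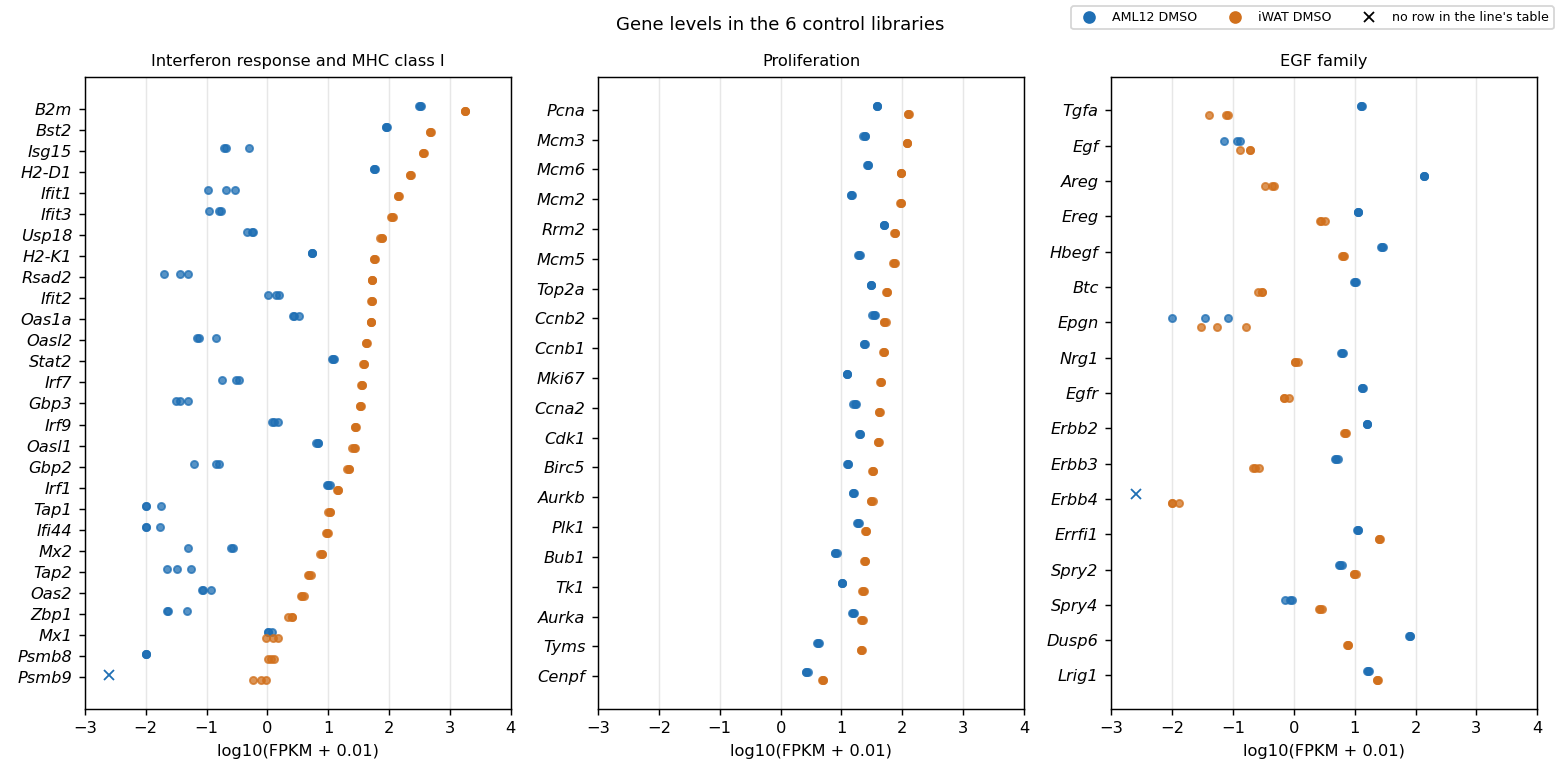
Level in each control library, as log10(FPKM + 0.01) on the x axis, of members of the interferon and MHC class I, proliferation and EGF-family lists, with AML12 DMSO in blue, iWAT DMSO in orange and a cross where a table has no row. Isg15 lies near 362 FPKM in iWAT and 0.293 FPKM in AML12, every proliferation gene shown has its iWAT points to the right of its AML12 points, and Areg is high in AML12 (138 FPKM). Over all tested genes, 89.8% did not overlap between the lines.

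Chemokines and cytokines were split between the lines. Of 26 listed, 20 were tested, 11 were called for iWAT and 8 for AML12, beside 19.8% and 14.2% of all tested genes. Cxcl5, a neutrophil attractant, was among the most abundant transcripts of AML12, at 1188, 1254 and 1268 FPKM against 23.9, 24.3 and 23.5 FPKM in iWAT (5.63, adjusted p = 2.03e-11, limma), and the alarmin Il33 stood at 50.4 ± 0.473 against 1.47 ± 0.183 FPKM. Cxcl10, an interferon-induced T-cell attractant, read 141, 145 and 145 FPKM in iWAT and 0.0480, 0.166 and 0.0415 FPKM in AML12. Ccl5 and Ccl7, attractants of leukocytes, stood at 110.3 ± 4.59 and 407 ± 3.77 FPKM in iWAT, and Il6 at 4.22 ± 0.143 FPKM. Ccl2, a monocyte attractant, stood at 203, 205 and 204 FPKM in AML12 and 476, 477 and 485 FPKM in iWAT (-1.23), but in the DEP libraries the lines came to 374 and 356 FPKM and the call was lost.

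The ligand and receptor genes of the EGF family that were called were higher in AML12. Of 17 listed genes, which include regulators of receptor signalling, 14 were tested and 10 were called higher in AML12. Areg, an EGF receptor ligand, read 137, 139.9 and 139 FPKM in AML12 and 0.422, 0.327 and 0.461 FPKM in iWAT (6.64, adjusted p = 3.91e-11, limma). Tgfa, another ligand, stood at 12.9, 12.9 and 13.3 FPKM against 0.0734, 0.0306 and 0.0677 FPKM, the receptor Egfr at 13.5 ± 0.161 against 0.728 ± 0.0758 FPKM, and Dusp6, a phosphatase that feeds back on ERK, at 80.7 ± 1.94 against 7.63 ± 0.280 FPKM. The Tgfa value is for the mouse gene, and whether reads of a human transgene align to it was not tested. Errfi1 and Spry4, which restrain receptor signalling, were called for iWAT on the deposited scale but not under median-of-ratios scaling or centring.

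FGF, IGF and PDGF genes were split. Fgfr1, an FGF receptor of mesenchymal cells, read 25.4, 25.1 and 25.2 FPKM in iWAT and 0, 0 and 0.00473 FPKM in AML12 (-4.71). Fgf7, an FGF-family ligand, read 26.9 ± 0.709 against 0.0880 ± 0.0487 FPKM. The ligand Fgf1 was found in AML12, at 24.8 ± 0.412 FPKM, as were Pdgfb (18.9 ± 0.602 FPKM) and the IGF-binding proteins Igfbp4 (321 ± 5.05 FPKM) and Igfbp3 (17.6 ± 0.917 FPKM). Igf2r, the mannose-6-phosphate receptor, stood at 55.8 ± 0.402 FPKM in iWAT and 0.771 ± 0.0783 FPKM in AML12. Hgf, the hepatocyte growth factor, was found in iWAT at 1.70 ± 0.156 FPKM with 0 AML12 reads, and its receptor Met stood at 30.9 ± 0.357 FPKM in AML12 and 10.7 ± 0.161 FPKM in iWAT. In this group of 30, 9 of 20 tested were called for AML12 and 7 for iWAT, beside 14.2% and 19.8% of all tested genes.

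Among TGF-beta, BMP and WNT genes, 8 of 15 tested were called for AML12 and 3 for iWAT, beside 14.2% and 19.8% of all tested genes. Grem1, an extracellular antagonist of BMPs, read 184, 184 and 183 FPKM in iWAT and 0.0104, 0 and 0 FPKM in AML12 (-7.52, adjusted p = 1.05e-11, limma), while the ligand Bmp4 was the one seen in AML12. Wnt7b stood at 76.6, 76.3 and 76.4 FPKM in AML12 and 0.00748, 0.0324 and 0 FPKM in iWAT (6.26), with Wnt7a and Wnt4 at 7.89 and 3.48 FPKM in AML12. Tgfbr3 (betaglycan, a coreceptor) was at 23.5 ± 0.951 FPKM in iWAT and 0.147 ± 0.0322 FPKM in AML12.

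Of 33 listed laminin, basement-membrane and integrin genes, 25 were tested, 10 were called for AML12, 4 for iWAT (beside 14.2% and 19.8% of all tested genes) and 11 were not called. Itga2, a collagen receptor subunit, stood at 90.4, 90.2 and 92.4 FPKM in AML12 and 0.0514, 0.0445 and 0.0504 FPKM in iWAT (6.45), and Itga3, which pairs with beta 1 to bind laminin, at 137 ± 1.08 against 9.04 ± 0.433 FPKM. Itgb4, the hemidesmosome subunit, and the laminin chain Lamb3 stood at 23.6 ± 0.634 and 56.9 ± 0.480 FPKM in AML12 against 0.268 ± 0.00748 and 0.0548 ± 0.0263 FPKM in iWAT. The laminin chain Lamb1, at 36.2, 36.7 and 36.6 FPKM in iWAT and 0.650, 0.578 and 0.624 FPKM in AML12, and the fibronectin receptor Itga5, at 42.2 ± 0.440 against 12.2 ± 0.764 FPKM, were called for iWAT.

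Proliferation genes were expressed in both lines and higher in iWAT. All 20 listed genes reached 1 FPKM in every control library, and 12 were called for iWAT and 0 for AML12. Mki67, a marker of cycling cells, stood at 12.4, 12.5 and 12.5 FPKM in AML12 and 44.0, 43.3 and 44.5 FPKM in iWAT (-1.74), and Mcm2, part of the replicative helicase, at 14.4 ± 0.275 against 93.9 ± 1.17 FPKM (-2.62). The count fell to 10 under both median-of-ratios scaling and centring and to 7 in the DEP libraries, so that its size depends on the libraries used. The D-type cyclins differed, with Ccnd1 at 264, 263 and 264 FPKM in AML12 and 21.8, 21.7 and 22.2 FPKM in iWAT (3.53), and Ccnd2 at 2.29, 2.25 and 2.40 FPKM against 59.6, 59.7 and 59.4 FPKM (-4.19). Cdkn2a, which encodes the cell cycle inhibitors p16 and ARF, stood at 88.6 ± 1.89 FPKM in AML12 and 270.0 ± 6.25 FPKM in iWAT, and Cdkn2b at 39.9 ± 1.06 against 18.6 ± 1.64 FPKM. The FPKM do not separate p16 from ARF.

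Metabolic isoenzymes showed liver and general forms side by side. Pklr, the liver and red cell pyruvate kinase, read 35.1, 37.6 and 36.9 FPKM in AML12 and 0, 0 and 0.00618 FPKM in iWAT (5.23, adjusted p = 6.65e-11, limma), while the widespread form Pkm was at 586 ± 6.13 and 365 ± 4.10 FPKM. Aldoa, a general aldolase, was at 758 ± 2.15 FPKM in AML12 and 181 ± 1.92 FPKM in iWAT (2.06). Ldhb, a lactate dehydrogenase subunit, stood at 0, 0.0280 and 0.0297 FPKM in AML12 and 25.4, 24.6 and 25.0 FPKM in iWAT (-4.67). The desaturases Scd1 and Scd2 were higher in AML12, Scd1 at 228 ± 0.239 against 36.6 ± 0.627 FPKM. In this group 11 of 27 tested genes were called for AML12 and 4 for iWAT, beside 14.2% and 19.8% of all tested genes.

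Genes that handle foreign compounds, the class to which the ester tested in the series belongs, leaned to AML12. Of 21 tested, 11 were called for AML12 and 3 for iWAT, beside 14.2% and 19.8% of all tested genes. Ces2g, a carboxylesterase, stood at 12.9, 12.8 and 12.8 FPKM in AML12 and 0.179, 0.167 and 0.313 FPKM in iWAT (3.50). Gsta4, a glutathione transferase, stood at 424 ± 9.04 against 13.2 ± 0.533 FPKM, and the dioxin receptor Ahr at 8.01 ± 0.233 against 2.60 ± 0.227 FPKM. Cyp1b1 was higher in iWAT, at 29.9, 30.3 and 30.4 FPKM against 0.726, 0.631 and 0.484 FPKM (-4.28). Of the carboxylesterase genes listed, Ces2g is the one that reached 10 FPKM in either line.

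Of 17 imprinted and fetal genes, 8 were tested, 1 was called for AML12 and 2, Plagl1 and Igf2bp3, for iWAT, which is too few to read against the 14.2% and 19.8% of all tested genes. Peg3, a paternally expressed zinc-finger gene, stood at 9.93, 9.13 and 9.53 FPKM in AML12 and 0, 0.00291 and 0.00440 FPKM in iWAT. Plagl1, another paternally expressed zinc-finger gene, had 0 reads in AML12 and 17.1, 16.1 and 16.1 FPKM in iWAT, at least 5768-fold higher by the 3-read floor. The fetal liver protein Afp stood at 1.32 FPKM in AML12 and 0.444 FPKM in iWAT, and Igf2 had no row in either table.

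Markers of other cell types were mostly absent, and their part in the results above was not tested. For leukocytes, 9 of 13 listed genes were at 1 FPKM in neither line throughout, and the defining genes Ptprc and Adgre1 stood at 0.00747 and 0.00961 FPKM in AML12 and have no row in the iWAT table. The list's summed level, 329.9 to 334 FPKM in AML12 and 17.1 to 18.3 FPKM in iWAT, came mainly from Cd14, a lipopolysaccharide coreceptor, at 317, 316 and 320.5 FPKM in AML12. Cd68 stood at 11.1 ± 0.779 and 10.9 ± 0.672 FPKM. Endothelial genes summed to 0.519 to 0.559 FPKM in AML12 and 1.84 to 1.91 FPKM in iWAT, with Pecam1 at 0.0140 and 0.0164 FPKM. Stellate-cell genes summed to 2.43 to 2.76 and 2.61 to 2.97 FPKM, with Lrat at 0 and Reln at 0.000616 FPKM in AML12. Skeletal-muscle genes stayed below 1 FPKM in sum in both lines. Glial and neural genes summed to 6.07 to 6.30 and 6.60 to 7.60 FPKM, and mammary and squamous genes to 5.53 to 6.27 and 0.284 to 0.369 FPKM.

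Some members of a further list stood high in AML12. Of 7 mesothelial genes, 3 were tested and all 3 were called for AML12. They were Krt19, Msln at 369.7, 378 and 378 FPKM against 1.17, 1.37 and 1.04 FPKM, and the uroplakin Upk1b at 25.8 ± 0.281 against 0.00292 ± 0.00506 FPKM. Krt19 and Upk1b lay below 1 FPKM in iWAT and passed the filter through AML12 alone, and Krt19 is also among the bile duct genes above. The count is thus too small and too bound to the filter to mark a set. The defining gene Upk3b stood at 0.0132 FPKM in AML12 and Wt1 at 0.0479 FPKM, so that the list as a whole was not present. Of 15 housekeeping genes, 3 were called for AML12 and 4 for iWAT, beside 14.2% and 19.8% of all tested genes. Actb was at 863, 842 and 833 FPKM in AML12 and 795, 769 and 777 FPKM in iWAT. Gapdh varied within a line, from 6.78 to 31.2 FPKM in iWAT, and has many processed copies that can take its reads.

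Genes outside the joint set add to the difference. The AML12 table alone lists 3487 genes, of which 91 reached 1 FPKM in all 3 control libraries, and the iWAT table alone lists 4837, of which 169 did. The highest named in AML12 were Foxa2 (32.3 ± 1.96 FPKM), the sulfotransferase Sult1d1 (31.0 ± 1.15 FPKM) and the transcriptional coactivator Eya2 (26.8 ± 1.34 FPKM). Those highest in iWAT were Crtap (46.3 ± 1.22 FPKM), which takes part in collagen prolyl hydroxylation, Lox (23.2 ± 0.293 FPKM) and Mcub (23.1 ± 1.34 FPKM), a subunit of the mitochondrial calcium channel. Neither table has a row that is 0 in all its libraries. No level is given for these genes in the other line, and none was tested.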

How the data were processed

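RNA was measured in 12 libraries, and the 6 DMSO libraries were compared. Per the labels' protocols, total RNA of RIN at or above a set minimum was made into stranded total RNA libraries. Per the submitters' processing notes, reads were handled with Trimmomatic and HISAT2 and the build was GRCm39. The counting tool and annotation are not given in the sources used here. The authors deposited 1 table a line of FPKM by Ensembl identifier, without naming the unit in the header. The unit was read from the values. Times the exon length of GENCODE M21 (build GRCm38), the value is a whole multiple of 1 constant per library, within 0.001, for 89.9% of the genes in both tables, so that both are scaled by library total. Reads were recovered by this step for 12476 of the 12477 tested genes and 99.9% or more of each control library's reads. M21 also gave symbols for 95.6% of the shared genes. No gene coordinates of that build are printed, and promoter coordinates are those of the RefSeq table.

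Tables were joined by identifier, and genes with at least 1 FPKM in 3 of the 6 libraries were tested by limma 3.58.1 (R 4.3.3) on log2(FPKM + 1), with a trend in the empirical Bayes step, two-sided, adjusted by Benjamini-Hochberg over all tested genes. Python 3.11.15, pandas 2.3.3, numpy 2.4.6 and matplotlib 3.10.9 did the rest. The script was tested on simulated data. Floors of 3 reads cover counting error only. Among low read numbers, 60.8% to 62.7% were even in each control library. Whether the reads of a pair were counted apart was not tested, and the folds given as at least would then be smaller. The 32 lists, the tests and the choice of these libraries were made with earlier results of these data known. Named were the 5 markers, the defining genes of each list, up to 6 called members a list and direction with the largest differences, the 10 largest differences over all genes in each direction, the 5 highest levels per line and the 3 highest genes of each single table, and members that complete a count of 5 or fewer. A few list members and motifs are not reported here. Others are said to have been picked after their values were seen. Same-numbered libraries of the lines share only a number. The 23 alternatives changed pseudocount, filter, scaling, threshold, test, libraries and identifiers.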

Additional observations from a re-analysis of the deposited data

How the results depend on the processing

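The count of 4246 called genes (1770 higher in AML12, 2476 in iWAT) kept within 1.5 times under every alternative except the size threshold. Without one it was 11134 genes (4413 and 6721), and with a 4-fold one 1444 (700 and 744). Leaving out each control library in turn gave 4228 to 4250 genes, with 1765 to 1773 higher in AML12 and 2459 to 2477 higher in iWAT. With a replicate block the count was 4247, and the block changed no call of a named gene. Deviations of same-numbered libraries correlated at -0.0022 to 0.046, so that the numbers do not pair the libraries. Voom on the recovered reads called 5212 genes. Median-of-ratios scaling called 4067, of which 3727 were among the 4246, and the DEP libraries 3971, of which 3648 were. Over 221 named genes and 23 alternatives, 4929 of 5049 values kept direction and call, 91 lost the call, 54 of these under the 4-fold threshold, 16 gained it and 13 changed sign. In the DEP libraries Ccl2 came to 0.074, Cd68 to -1.43, Tgfb1 to -0.19 and mt-Cytb to 0.057. Under median-of-ratios scaling Rplp1 came to 0.0997 and mt-Cytb to 0.2266, and under centring to 0.0849 and 0.2118. Leaving out 1 library gave -0.03 to 0.0663 for Cd68, -0.0213 to 0.0202 for mt-Cytb and -0.6948 to 0.33 for Gapdh. None of these 6 but Ccl2 was called on the deposited scale. The cause was not tested. Depth limits the levels of genes with a few reads, which rest on counting error as well.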
